A study of Mus musculus with 11 samples.

Results

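Sox1, Sox2, Sox3, Sox14 and Sox21 are the SoxB genes of the mouse, 5 of the 20 Sox genes and of the 22226 protein-coding genes counted here. They encode transcription factors that bind DNA through an HMG box. The SoxB1 proteins, Sox1, Sox2 and Sox3, act mostly as activators and keep neural progenitors undifferentiated, while the SoxB2 proteins, Sox14 and Sox21, act mostly as repressors. Sox21 works against SoxB1 activity in progenitors as they leave the cell cycle, and Sox14 is known from postmitotic neurons, among them GABAergic neurons of the midbrain and diencephalon. The open chromatin of the 5 loci was read from a list of 131942 regions, each a row with a score for every library. A row belonged to a locus when it overlapped the gene body, taken in mm9 and extended by 50 kb on each side. This gave 64 of the 131942 rows, namely 5 promoter rows, 1 for each gene, and 59 distal rows. A promoter ran from 1 kb upstream to 100 bp downstream of any annotated transcription start site (TSS) of the gene, and every other row of a locus was called distal.

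The study compared dopaminergic (DA) with serotonergic (5-HT) neurons of the mouse embryo at E14.5, both purified by FACS before ATAC-seq, in which a transposase cuts accessible DNA. DA neurons were the GFP+ cells of the ventral mesencephalon of TH-GFP embryos, whose GFP is driven by the Th promoter, in a line kept on C57BL/6J. Cells labelled 5-HT were the YFP+ cells of rhombomeres 1 to 3 of CRE x ROSA YFP embryos, a line name given here without its CRE driver. Transgenic males were mated with Swiss wild-type females in both cases, and tissue of several embryos was pooled for each experiment. A ROSA reporter switched on by CRE stays on in the descendants of a cell. By immunofluorescence, the authors found the sorted YFP+ cells enriched in serotonergic neurons. Their RNA-seq of such cells also showed genes of dopaminergic and GABAergic neurons. For the GFP+ cells, the paper proposes a slight contamination with GABAergic neurons. Which cell types were present in the ATAC-seq samples was not tested here. There were 3 DA and 2 5-HT libraries. Each library came from a separate FACS experiment, but the labels number the samples without saying that these came from separate litters, so the p-values below measure the spread between these samples only.

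In the deposited table a score of 0 stands for no peak in that library. The sources leave the scale of other scores unnamed. For the SoxB promoters, the place of a score among the peaks of its own library is therefore given as well. For other genes and rows it is mostly left out. A peak was present in 52861, 93055 and 94351 rows of DA replicates 1 to 3, against 38772 and 22879 rows of 5-HT replicates 1 and 2. The lowest score of a peak was 3.45, 3.04 and 3.03 in the DA libraries and 3.37 and 2.83 in the 5-HT libraries. Peak numbers thus differed between the cell types and within each of them, and many of the counts below were also made with the 22879 highest-scoring rows of every library, the number of the library with the fewest peaks. A row without a peak may lie below the limit of detection of that library, and read depth per library is not given in the files.

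The progenitor label of the SoxB genes was set beside other progenitor genes. Promoters of 10 genes of neural progenitors and radial glia had a peak in all 5 libraries for 8 of them (80%), against 48.6% of protein-coding genes. Nes, which encodes an intermediate filament of progenitors, was among these 8. It had scores of 4.16, 4.46 and 4.61 in the DA and 4.53 and 2.94 in the 5-HT libraries. The exceptions were Notch1, without a peak in DA replicate 3 and in both 5-HT libraries, and Slc1a3, without one in 5-HT replicate 2. Summed over the list, the score was 53.9, 56.5 and 51.7 in the DA and 43.4 and 30.8 in the 5-HT libraries, and the gene with the highest score in DA replicate 2 was Mki67 (9.41). The median score of protein-coding promoters was also lower in 5-HT, at 7.70, 9.37 and 7.98 in DA against 5.71 and 4.35. At the same number of peaks the list went the other way, with 4, 3 and 4 promoters in DA and 7 and 8 in 5-HT. Of the 22226 protein-coding genes, 10172, 10225 and 9778 then had a promoter peak in DA and 11016 and 11046 in 5-HT. Markers of the sorted neurons differed in how well they set the groups apart. Th, the gene of the rate-limiting enzyme of dopamine synthesis, had promoter scores of 9.91, 10.6 and 8.45 in the DA libraries and no peak in either 5-HT library. Among 12 genes of DA neurons, 2 (16.7%) had this pattern, Th and Lmx1a, against 1.99% of protein-coding genes. A promoter peak in all 5 libraries was found for 7 of the 12 (58.3%), against 48.6%. Of 9 genes of 5-HT neurons, none had a promoter peak that both 5-HT libraries shared and all DA libraries lacked, a pattern of 3 of the 22226 protein-coding genes. Fev, a transcription factor gene of 5-HT neurons, had one in 5-HT replicate 1 only (3.88). The promoter of Slc6a4, which encodes the serotonin transporter, had peaks in each DA library but not in 5-HT. Tph2, the gene of the rate-limiting enzyme of serotonin synthesis in neurons, had promoter scores of 9.91, 7.59 and 11.1 in DA and 7.09 and 3.59 in 5-HT. By place within the library the groups overlapped, at 90.5%, 80.9% and 95.2% in DA and 87.5% and 46.0% in 5-HT. Gata3, a transcription factor gene of 5-HT and GABAergic neurons, scored 6.98, 4.52 and 4.65 in DA and 5.17 and 7.51 in 5-HT. Gata2 had a promoter peak in DA replicate 2 (3.11) and in 5-HT replicate 1 (4.20). In bulk samples, fewer cells with an open site and a less open site in each cell cannot be told apart.

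Promoters of Sox2 and Sox3 in the SoxB1 group and of Sox21 in the SoxB2 group had a peak in each of the 5 libraries, whereas those of Sox1 and Sox14 did not. These 3 of 5 genes compare with 48.6% of 22226 protein-coding genes. In 1 or more libraries, a promoter peak was found for all 5 members and for 65.2% of protein-coding genes.

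Sox2, which maintains neural stem cells, had a promoter row at chr3:34547640-34550306 that covered the gene's start and part of its exon. Its score was 5.02, 6.27 and 4.11 across DA replicates 1 to 3, against 5.21 and 4.04 in the 5-HT libraries. The groups overlapped, at 5.13 ± 1.09 (SD, n = 3) and 4.63 ± 0.827 (SD, n = 2). Within the libraries, 48.0%, 72.3% and 52.1% of the DA peaks and 66.5% and 62.0% of the 5-HT peaks scored lower, so that the row stood near the middle or above it throughout.

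Sox3 is the X-linked SoxB1 gene, and its promoter row lay at chrX:58144947-58147328. The scores were 4.42, 5.16 and 4.24 in the DA libraries and 3.86 and 3.43 in the 5-HT libraries. All DA scores were above both 5-HT scores, with a difference of 0.965, while the places within the libraries overlapped, at 35.4%, 61.2% and 54.8% in DA and 29.1% and 38.2% in 5-HT. The row also covered the start of Gm14662, a processed transcript on the opposite strand.

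For Sox1, an early marker of the neural plate, the order was the other way round. Its promoter row, chr8:12394879-12395937, had no peak in DA replicates 1 and 3 and a score of 3.98 in DA replicate 2. In 5-HT replicates 1 and 2 it scored 5.53 and 4.58, above 71.5% and 74.1% of the peaks of these libraries, against 39.8% in DA replicate 2. Both 5-HT scores exceeded all DA scores, and the difference between the means was -3.73. Its size depends on counting a missing peak as 0, since the lowest peak scores of DA replicates 1 and 3 were 3.45 and 3.03. A promoter peak in both 5-HT libraries but in fewer than 3 DA libraries was seen for 1 of the 5 members, and for 0.301% of protein-coding genes. The row lies in an intron of Gm5607, also called Sox1ot, which runs over the Sox1 gene on the same strand.

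Sox21 had the widest promoter row of the 5 genes, chr14:118633770-118636674, which reaches from the TSS into the gene body and also covers the start of the antisense lincRNA gene Gm4675. It scored 5.02, 5.88 and 5.17 in the DA libraries and 4.30 and 4.56 in the 5-HT libraries. The groups did not overlap in score, with a difference of 0.933. By place within the library they did, since 5-HT replicate 2 was the highest, at 73.7%, and 5-HT replicate 1 the lowest, at 44.8%.

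Sox14 was nearly without a promoter peak. The row at chr9:99776412-99776753 had a score of 3.17 in DA replicate 2, above 7.70% of the peaks of that library, and no peak in the other 4. Lack of a peak in both 5-HT libraries, with a peak in fewer than 3 DA libraries, is found at 38.8% of protein-coding promoters and at 1 of the 5 members.

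**Figure D1:**
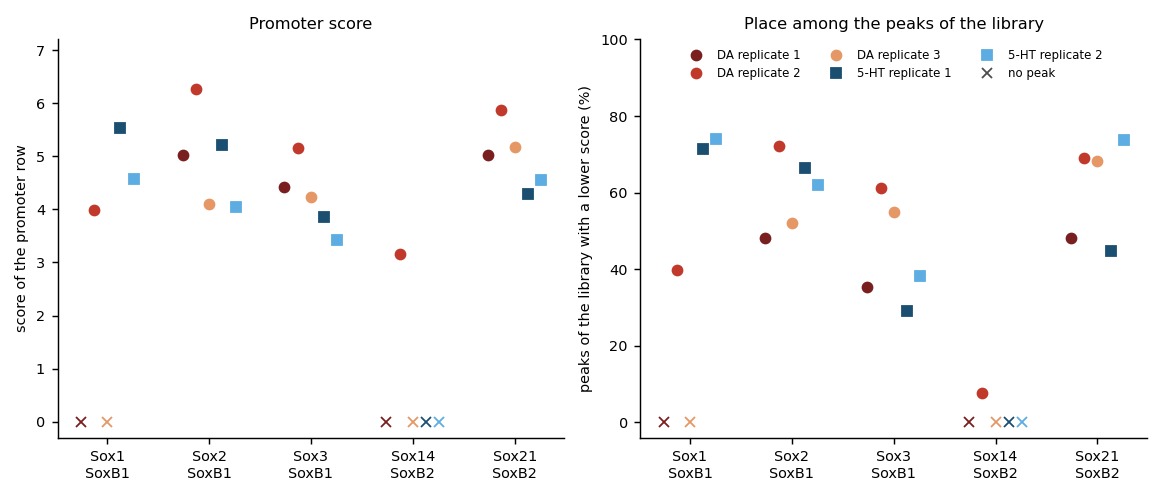
Score of the promoter row of each SoxB gene in the 5 libraries (left) and the percentage of the peaks of the same library with a lower score (right), with circles for DA, squares for 5-HT and crosses for no peak. The Sox1 promoter reached 5.53 and 4.58 in the 5-HT libraries against 3.98 in a single DA library, and the Sox14 promoter had a peak of 3.17 in DA replicate 2 only.

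An exact two-sided permutation test over 3 and 2 libraries, with p as double the smaller one-sided p, cannot give a p below 0.2, so no difference could reach 0.05. For the promoter score, p was 0.2 for Sox1, Sox3 and Sox21, 0.8 for Sox2 and 1 for Sox14 (exact permutation tests). For Sox2, Sox3 and Sox21 the direction depended on the number of peaks, and for Sox1 it did not. With 22879 peaks in each library, no DA library kept a peak at any of the 5 promoters, 5-HT replicate 1 kept those of Sox1, Sox2 and Sox21, and 5-HT replicate 2 kept these and that of Sox3. Such a promoter peak, present in both 5-HT libraries but absent from DA, was then found for 3 of 5 members, against 2.27% of protein-coding genes. With 10000 peaks in each library, the promoter peaks of Sox1, Sox2 and Sox21 were left in 5-HT replicate 2 only. The direction then rested on 1 library, for Sox1 as well (p = 0.8 for each of the 3, exact permutation tests). Among the promoters with a peak, the Sox2 promoter scored above 17.0%, 24.7% and 10.1% in the DA libraries and above 39.4% and 41.5% in the 5-HT libraries. The highest place of any SoxB promoter in a DA library was the 24.7% of Sox2 in DA replicate 2.

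The promoter rows of Sox2, Sox3 and Sox21 were broad, at 2667, 2382 and 2905 bp, against a median of 1303 bp over 10800 protein-coding promoters with a peak in all 5 libraries. Of these promoters, 94.9%, 91.3% and 96.7% had a narrower row. The row of Sox1 measured 1059 bp and that of Sox14 342 bp. All 5 promoters held more CpG dinucleotides than the median promoter, by different margins. The kilobase before the start of the gene held 60 CpG at Sox1, 62 at Sox2, 63 at Sox3, 41 at Sox14 and 32 at Sox21, against a median of 19 over all protein-coding genes. In the same order, 91.9%, 92.6%, 92.9%, 79.8% and 69.9% of promoters held fewer. Among 4484 genes with at least as many CpG as Sox14, 83.7% had a promoter peak in all 5 libraries, which Sox1 and Sox14 lacked. To show this base composition, the 200 bases before the start of each gene are given in mm9, on the strand of the gene, with CpG in capitals.
Sox1 (chr8:12395319-12395518, plus strand, 23 CpG): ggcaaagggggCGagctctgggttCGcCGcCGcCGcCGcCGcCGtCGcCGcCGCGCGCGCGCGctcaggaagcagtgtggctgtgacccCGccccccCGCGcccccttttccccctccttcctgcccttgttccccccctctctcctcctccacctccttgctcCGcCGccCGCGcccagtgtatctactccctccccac
Sox2 (chr3:34548727-34548926, plus strand, 22 CpG): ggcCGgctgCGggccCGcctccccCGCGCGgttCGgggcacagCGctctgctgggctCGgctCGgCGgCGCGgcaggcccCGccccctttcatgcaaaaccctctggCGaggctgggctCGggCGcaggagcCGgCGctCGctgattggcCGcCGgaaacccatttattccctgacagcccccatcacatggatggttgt
Sox3 (chrX:58146606-58146805, minus strand, 13 CpG): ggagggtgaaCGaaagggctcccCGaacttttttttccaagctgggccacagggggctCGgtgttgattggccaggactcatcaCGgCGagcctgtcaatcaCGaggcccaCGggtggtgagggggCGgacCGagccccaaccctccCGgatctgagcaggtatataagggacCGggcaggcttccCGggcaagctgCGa
Sox14 (chr9:99776664-99776863, minus strand, 15 CpG): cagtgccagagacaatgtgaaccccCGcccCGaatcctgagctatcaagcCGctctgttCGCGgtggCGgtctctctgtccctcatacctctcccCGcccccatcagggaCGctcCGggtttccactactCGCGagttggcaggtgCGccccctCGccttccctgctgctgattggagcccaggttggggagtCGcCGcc
Sox21 (chr14:118636253-118636452, minus strand, 15 CpG): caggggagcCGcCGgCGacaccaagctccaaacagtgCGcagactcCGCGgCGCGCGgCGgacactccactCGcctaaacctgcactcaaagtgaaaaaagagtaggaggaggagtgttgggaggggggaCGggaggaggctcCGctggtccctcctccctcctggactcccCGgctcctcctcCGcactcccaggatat
The word CCAAT, counted on both strands, occurred in these stretches at Sox2, Sox3 and Sox14, and in 30.6% of the same stretches of all protein-coding genes. A SOX core, ACAAAG or ACAATG on either strand, occurred at Sox14 only, and in 18.3% of all.

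The distal rows were densest at Sox2. Of its 18 distal rows, 9, 14 and 11 had a peak in DA replicates 1 to 3, against 12 and 4 in the 5-HT libraries. Together with the promoter row, the locus had more rows with a peak than 95.7%, 97.2% and 95.9% of 8783 loci of protein-coding genes of up to 10 kb in the DA libraries, and more than 99.4% and 85.6% in the 5-HT libraries. Most of these rows lay in introns of Sox2ot, a lincRNA gene that runs over Sox2 on the same strand. A narrow row among them, chr3:34539733-34539876, scored 6.87 and 8.97 in DA replicates 1 and 2 and 10.9 in 5-HT replicate 1, with no peak in the other 2 libraries; it is named here after its values were seen. An intergenic row 42.4 kb downstream, chr3:34590992-34591615, had peaks of 4.49, 4.64 and 4.73 in DA and of 3.37 and 5.51 in 5-HT. The 5-HT libraries differed there, with 5-HT replicate 2 above 85.8% of its peaks and 5-HT replicate 1 at its lowest score. A row in a Sox2ot intron 2.00 kb upstream of the Sox2 TSS, chr3:34546770-34547082, had peaks only in DA, at 4.85, 6.24 and 4.52.

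At Sox1, the libraries of 1 cell type differed more than the cell types did. Of 17 distal rows, 1, 13 and 5 had a peak in DA and 10 and 3 in the 5-HT libraries, and none was shared by all 5. The only row of the locus with a peak in DA replicate 1 lay 50.8 kb downstream, at chr8:12445909-12446745. Many of the rows were within Gm5607. A row in the single exon of Sox1, chr8:12396443-12397416, had no peak in DA replicate 1, scores of 4.32 and 3.50 in the other DA libraries, and 4.81 and 3.16 in 5-HT. These Sox1 rows are outside the rule for named rows and are given after their values were seen. The Sox1 locus had more rows with a peak than 23.0%, 95.9% and 54.4% of loci in the DA libraries, and than 98.2% and 77.3% in 5-HT. More rows with a peak in 5-HT replicate 1 than in DA replicate 1 were counted at 4 of the 5 loci, all but Sox21, against 12.7% of the loci of genes of up to 10 kb. This pair of libraries was compared after the counts had been seen, and DA replicate 2 had more rows with a peak than 5-HT replicate 1 at all 5 loci.

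Around Sox3, distal peaks were few except in DA replicate 3. Of 8 distal rows, 0, 3 and 7 had a peak in DA and 1 and 0 in the 5-HT libraries. Their scores reached 4.09, in DA replicate 3, and no distal row had a peak in both cell types.

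Sox21 had 11 distal rows, of which 3, 11 and 7 had a peak in DA and 3 and 2 in the 5-HT libraries. The intergenic row chr14:118629460-118631344, 5.85 kb downstream of the TSS and 1885 bp wide, had a peak in each library, with scores of 4.45, 3.39 and 3.68 in DA and 5.07 and 3.58 in 5-HT. It lies just beyond the 3′ end of the gene. A narrow intergenic row 27.2 kb downstream, chr14:118609008-118609177, had peaks of 4.49, 5.67 and 4.35 in the DA libraries and none in the 5-HT libraries.

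Sox14 had 5 distal rows, with 1, 2 and 1 peaks in the DA libraries and 2 and 0 in the 5-HT libraries. A peak in 1 library only was found for 4 of these rows. The row chr9:99769765-99769989, 6.79 kb downstream, was shared by DA replicate 2 (4.14) and 5-HT replicate 1 (5.43), and is likewise named after its values were seen. No other annotated gene lies in the Sox14 window, and its numbers of rows with a peak were at or below the median of loci, 3, 5 and 4 in the DA and 2 and 1 in the 5-HT libraries.

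**Figure D2:**
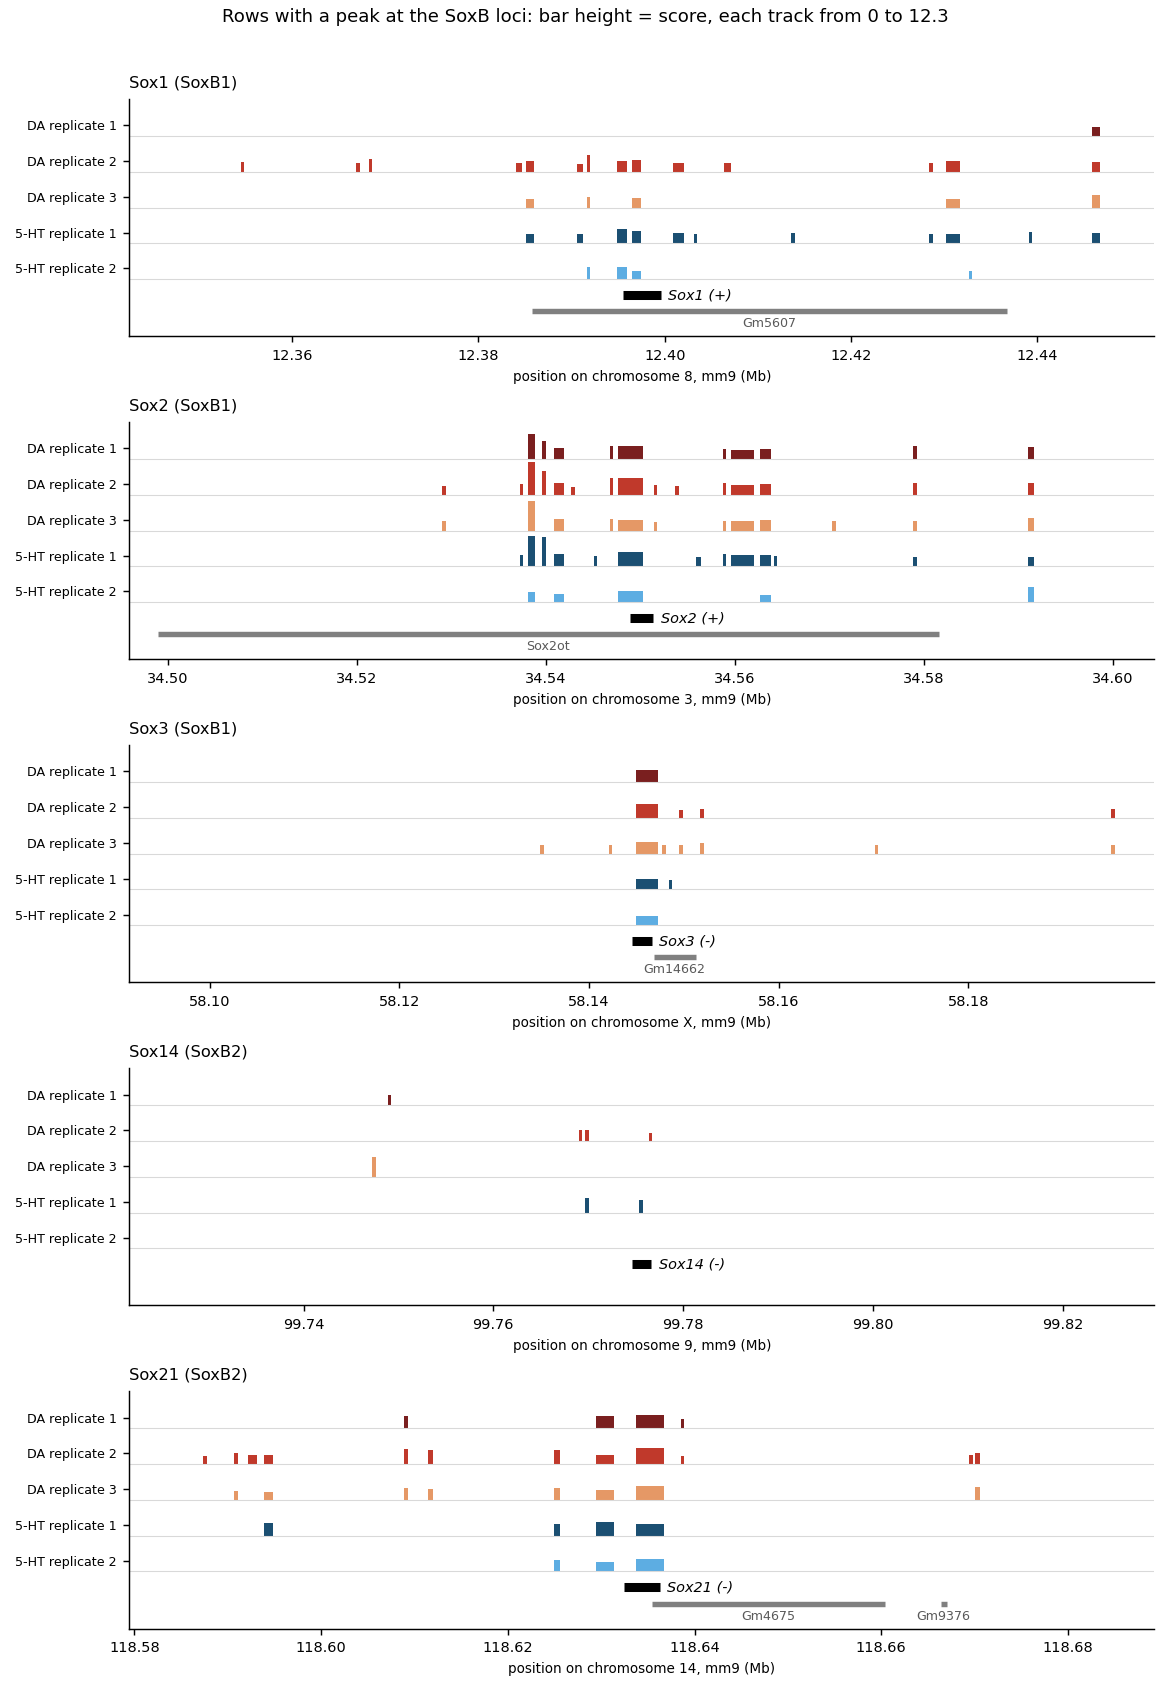
Maps of the 5 SoxB loci in mm9 with a track for each library, in which bars stand for rows with a peak, their height for the score on a scale from 0 to 12.3 and their width for that of the row (narrow rows are drawn at a minimum width). Gene bodies are in black and overlapping or neighbouring genes in grey, and the densest locus is that of Sox2, with 9, 14, 11, 12 and 4 distal rows with a peak.

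By the means of the libraries, DA minus 5-HT, the number of distal rows with a peak differed by 3.33 at Sox2, 2.83 at Sox3, -0.167 at Sox1, 4.50 at Sox21 and 0.333 at Sox14, with overlapping groups in each case (exact two-sided permutation tests, p = 0.6, 0.6, 1, 0.4 and 1). Without 5-HT replicate 2 the difference turned to -0.667 at both Sox2 and Sox14, and without 5-HT replicate 1 to 3.33 at Sox1. Of the 59 distal rows, 29 had a peak in DA but none in 5-HT, 9 the reverse, and 21 had peaks in both cell types. Over all rows outside protein-coding promoters, 74.5% had a peak in DA but none in 5-HT and 19.9% in both. Few of them were in all libraries of 1 cell type and absent from the other. Peaks in every DA library but in no 5-HT library were found for 2 rows, at Sox2 and Sox21, or 3.39%, against 14.5% of 115721 rows outside protein-coding promoters. No row had a peak in both 5-HT libraries but none in DA, against 0.431% of rows. All 5 libraries shared 5 rows (8.47%), 4 of them at Sox2, against 5.77%. A peak in 1 library only was recorded for 27 of the 59 distal rows, 11 of them in DA replicate 2 and 8 in 5-HT replicate 1; over all rows outside promoters the share is 49.3%. The 9 distal rows with a peak in 5-HT but none in DA were 4 at Sox1, 3 at Sox2 and 1 each at Sox3 and Sox14; such rows make up 5.63% of rows outside promoters. Leaving out DA replicate 1 gave a DA-only count of 10, and leaving out 5-HT replicate 1 a count of 6, and without 5-HT replicate 2 the count shared by all libraries was 9 and that of rows in 5-HT only was 8.

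Peak number had a strong bearing on these loci. Of the 59 distal rows, 23.7%, 72.9% and 52.5% had a peak in DA and 47.5% and 15.3% in the 5-HT libraries, while over all rows outside protein-coding promoters the shares were 33.9%, 67.1%, 68.9%, 22.3% and 10.6% in the same order. The SoxB share was above that of all rows in both 5-HT libraries and in DA replicate 2. With 22879 peaks in each library, 2 distal rows were left in each of the 3 DA libraries, and 12 and 9 in the 5-HT libraries. These are 3.39% of the 59 rows in each DA library and 20.3% and 15.3% in the 5-HT libraries, against 11.5%, 11.5% and 11.8% of all rows in DA and 10.7% and 10.6% in 5-HT. At the same number of peaks both 5-HT libraries thus stood above all DA libraries.

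By locus, Sox2 then had 2, 2 and 1 distal rows with a peak in DA and 6 and 4 in 5-HT, a difference of -3.33. Sox1 had none in DA and 1 and 3 in 5-HT, and Sox21 none in DA and 3 and 2 in 5-HT (exact two-sided permutation tests, p = 0.2 for Sox1, Sox2 and Sox21, the smallest value possible). At Sox3 no distal row was left in any library, and Sox14 had 1 in DA replicate 3 and 2 in 5-HT replicate 1 (p = 0.8, exact permutation test). More rows with a peak in each 5-HT library than in any DA library, promoter row included, were found at 3 of the 5 loci, against 5.73% of loci of genes of up to 10 kb. Peaks shared by both 5-HT libraries but absent from DA were then found at 5 distal rows, 2 at Sox2, 2 at Sox21 and 1 at Sox1, against 1.53% of rows.

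**Figure D3:**
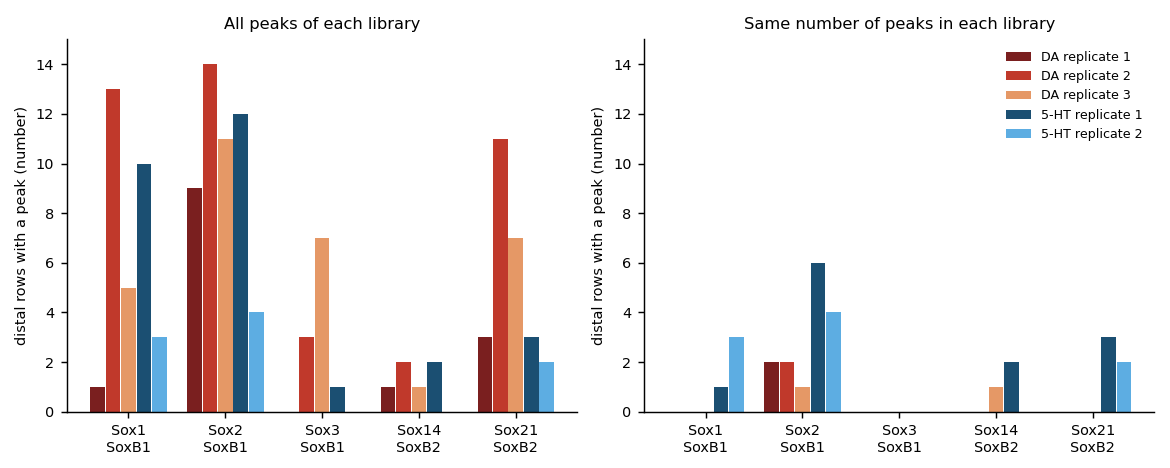
Number of distal rows with a peak at each SoxB locus in the 5 libraries, with all peaks (left) and with the 22879 highest-scoring rows of each library (right). Summed over the loci, 14, 43, 31, 28 and 9 distal rows had a peak on the left and 2, 2, 2, 12 and 9 on the right, in the order of the legend.

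Other marker lists moved in different directions at the same number of peaks. In the loci of the 10 progenitor genes, 21, 17 and 22 rows had a peak in DA and 31 and 41 in the 5-HT libraries, and 4, 3 and 4 promoters against 7 and 8. By locus, each 5-HT library had more rows than any DA library at Nes, Pax6, Sox9 and Notch1 (2, 3 and 2 against 5 and 8). This was not so at Vim, Hes1, Hes5, Fabp7, Slc1a3 or Mki67. For the 8 genes of GABAergic neurons, no promoter kept a peak in DA and 6 and 4 did in 5-HT, while the rows of their loci overlapped, at 15, 20 and 15 in DA and 23 and 16 in 5-HT. Their summed promoter score with all peaks was 26.8, 25.6 and 25.7 in DA and 32.9 and 13.3 in 5-HT, with Lhx1 the highest in 5-HT replicate 1 (5.52) and Helt at 0 in all 5 libraries. The 8 genes of the astrocyte and oligodendrocyte lineage had 14, 13 and 11 rows in DA and 23 and 36 in 5-HT. This was carried by Olig1 (1, 0 and 1 against 6 and 9), Olig2 (1, 0 and 1 against 4 and 7) and Aldh1l1. Gfap and Mbp did not carry it. In these sums, a row within reach of more than 1 gene of a list counts for each gene. Rows shared by Olig1 and Olig2 were not counted apart, so these genes are not separate evidence. Sox10 was at 0 at its promoter in each library. Olig2, a gene of oligodendrocyte and motor neuron progenitors, was without a promoter peak in DA replicate 1 only. The sum for the 12 genes of DA neurons went the other way, with 57, 53 and 54 rows in DA and 43 and 36 in 5-HT. Of these genes, only Th, Lmx1a and Foxa1 were lower in both 5-HT libraries than in any DA library. En2 had 2, 2 and 3 rows in DA and 5 and 3 in 5-HT. Sums were also lower in 5-HT for the 4 genes of glutamatergic neurons (12, 15 and 13 against 10 and 11). So was that for the 6 genes of endothelium and pericytes (13, 12 and 12 against 8 and 11). Of these 6, only Kdr and Pdgfrb were lower in both 5-HT libraries than in any DA library. Pecam1 had 3, 3 and 3 rows against 3 and 5. Among the glutamatergic genes, only Slc17a6 was lower in both 5-HT libraries than in any DA library (4, 5 and 4 against 0 and 1). Slc17a8 was higher in both (1, 1 and 1 against 2 and 2). Summed over 8 pan-neuronal genes there were 28, 25 and 27 rows in DA and 34 and 33 in 5-HT. Both 5-HT libraries stood above all DA libraries at Map2, Syt1, Snap25 and Elavl3. They did not at Tubb3 (5, 5 and 2 against 2 and 3), Elavl4, Stmn2 or Dcx. The 9 genes of 5-HT neurons had 27, 25 and 27 rows in DA and 27 and 29 in 5-HT. Of these genes, Lmx1b, Slc18a2 and Ddc are also among the 12 of DA neurons. Both 5-HT libraries stood above all DA libraries at Gata3 (1, 0 and 0 against 5 and 4) and Htr1a (0, 0 and 0 against 1 and 3). At Fev they stood below (3, 4 and 3 against 2 and 2). The groups were not apart at the other genes of this list. Over all protein-coding genes, 10172, 10225 and 9778 promoters had a peak in DA and 11016 and 11046 in 5-HT. The part of the cell makeup of the sorted samples in the SoxB counts was not tested.

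Distal rows were also read as sequence, for some rows named above that were shared by all libraries or found in the 3 DA libraries only. The central 200 bases are given in mm9, plus strand, with capitals for the SOX cores ACAAAG and ACAATG and for GCAAAT and TGCAAA, which overlap each other and are parts of the octamer bound by POU factors, on both strands. Such a stretch runs past both ends of a row under 200 bp, as at the Sox21 row 27.2 kb downstream (170 bp).
Sox2, 42.4 kb downstream, all libraries (chr3:34591204-34591403): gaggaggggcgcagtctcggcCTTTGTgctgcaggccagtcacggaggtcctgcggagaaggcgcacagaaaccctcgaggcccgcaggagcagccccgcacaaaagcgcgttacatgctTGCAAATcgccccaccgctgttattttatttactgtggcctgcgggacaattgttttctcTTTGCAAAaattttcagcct
Sox2, 2.00 kb upstream, DA only (chr3:34546827-34547026): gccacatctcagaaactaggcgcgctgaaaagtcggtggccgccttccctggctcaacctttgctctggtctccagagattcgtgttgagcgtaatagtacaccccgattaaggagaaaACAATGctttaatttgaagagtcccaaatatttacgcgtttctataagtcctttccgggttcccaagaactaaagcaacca
Sox21, 5.85 kb downstream, all libraries (chr14:118630303-118630502): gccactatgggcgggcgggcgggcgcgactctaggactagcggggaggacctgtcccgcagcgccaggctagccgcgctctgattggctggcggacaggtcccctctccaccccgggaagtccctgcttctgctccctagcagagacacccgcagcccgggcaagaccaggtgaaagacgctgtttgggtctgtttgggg
Sox21, 27.2 kb downstream, DA only (chr14:118608993-118609192): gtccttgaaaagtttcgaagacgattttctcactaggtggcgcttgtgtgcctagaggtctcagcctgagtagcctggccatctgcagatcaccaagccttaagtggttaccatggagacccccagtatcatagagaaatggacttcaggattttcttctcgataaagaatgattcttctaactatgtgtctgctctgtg
SOX cores were present in the central 200 bases of 14 of the 59 distal rows (23.7%), against 27.8% of 115721 rows outside protein-coding promoters. For the octamer parts the numbers were 12 of 59 (20.3%) against 22.6%. The full octamer ATGCAAAT was found in 2 of 59 (3.39%), against 1.92% of all. The differences were not tested.

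SoxB1 and SoxB2 were then set side by side. Each group held promoters with a peak in all libraries, 2 of 3 in SoxB1 and 1 of 2 in SoxB2, and each held 1 exception. Per locus, SoxB1 genes had 3.33, 10 and 7.67 distal rows with a peak in the DA libraries and 7.67 and 2.33 in the 5-HT libraries, and SoxB2 genes 2, 6.5 and 4 in DA and 2.5 and 1 in 5-HT. SoxB1 was higher in each library, with a mean difference of 3.00, but Sox3 had fewer distal rows than Sox21 in DA replicates 1 and 2 and in both 5-HT libraries, and as many in DA replicate 3. At the same number of peaks the difference was 0.467, and SoxB2 was higher in DA replicate 3 (0.5 against 0.333) and in 5-HT replicate 1 (2.5 against 2.33). As a share of the rows, 43 in SoxB1 and 16 in SoxB2, peaks were present at 23.3%, 69.8% and 53.5% against 25%, 81.3% and 50% in DA, and at 53.5% and 16.3% against 31.3% and 12.5% in 5-HT. With 3 and 2 genes, the groups were not tested.

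Among the 15 other Sox genes, promoters of 6 (40%) had a peak in all 5 libraries, against 48.6% of protein-coding genes. Those of 4 (26.7%) had none, against 34.8%. Both shares were thus somewhat below those of all genes. SoxC genes, which act in differentiating neurons after the SoxB1 genes, were open in all libraries, and Sox4 scored 9.46, 9.38 and 9.72 in DA and 4.78 and 4.78 in 5-HT. Sox11, of the same group, scored 7.75, 10.9 and 8.35 in DA and 6.18 and 3.51 in 5-HT. These DA scores were all above those of any SoxB promoter. In the SoxD group, Sox6, which is known from midbrain DA neurons, had peaks of 3.75, 4.75 and 3.42 in DA and none in 5-HT. In the SoxE group, Sox9, a gene of neural stem cells and glia, scored 4.38, 4.89 and 4.53 in DA and 4.92 and 4.41 in 5-HT, and Sox10 had no peak. Among SoxF genes, which are known from endothelium, Sox17 had peaks in 4 libraries, all but DA replicate 1, and Sox7 in none.

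Some genes that act with or beside SoxB factors in neural progenitors are given by themselves and do not stand for the others. The POU factor gene Pou3f4 had promoter scores of 10.3, 10.8 and 11.9 in DA and 7.69 and 6.98 in 5-HT, and Neurog3 had no promoter peak in any library. Neurog1, a proneural gene, had peaks in the same libraries as Sox1, with no peak in DA replicates 1 and 3, 3.31 in DA replicate 2, and 3.37 and 2.98 in 5-HT.

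To find promoters with a similar pattern, the ranks within the 5 libraries were compared with those of 14495 protein-coding genes with a row in the promoter, as the sum of the absolute differences over the libraries. Abcb9 was nearest to Sox1, with a sum of 9639, a peak of 3.88 in DA replicate 2 and of 4.98 and 3.97 in 5-HT. The next genes, C1qtnf6 (26554) and Tmc6 (26657), lacked a peak in 5-HT replicate 2, so that few promoters had the pattern of Sox1. Prkrip1, Ddah2 and Dnase1l1 were nearest to Sox2 (13877, 14443 and 14777), and Efs, Cd302 and Cacng4 to Sox3 (6330, 7294 and 7835). Smo, which encodes the transducer of Hedgehog signals, was nearest to Sox21 (4881), before Prrg3 (6323) and Zfp36l2 (8149). For Sox14 the nearest were Otop3, Gpld1 and Adap2, with sums of 58, 60 and 96, all with a low peak in DA replicate 2 only.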

How the data were processed

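The members and gene lists were chosen with earlier results of these data known. Per the study's methods, the authors checked and trimmed the reads (FastQC, Trimmomatic), mapped them to mm9 with Bowtie2, removed duplicates (Picard) and, with MACS2, called the peaks of every library; those under 100 bp apart were joined by BEDOPS; HOMER gave their annotation, which was not used here. No versions are given. The deposited score (column 5 of 5 tables with the same 131942 rows) is on a scale that is not named, and how scores of merged peaks were combined is not stated. In 1 line the chromosome name was corrected to Y. Gene bodies and TSSs came from GENCODE M1. Sox1, absent there, was placed by matching its RefSeq promoter sequence (300 bases, GRCm38.p6 table, 1 exact match in mm9), with a body of RefSeq length (4037 bp). Overlaps needed 1 bp. Map2 was found under its older symbol Mtap2. Named distal rows were, for each gene, up to 2 rows by the highest lowest rank among those in the 3 DA libraries only and among those in all 5, and any in the 5-HT libraries only; 3 genes of similar rank were named for each member. Analyses used Python 3.11.15, pandas 2.3.3, NumPy 2.4.6, SciPy 1.17.1 and pysam 0.24.0, with matplotlib 3.10.9 for figures, and functions were tested on simulated data. Alternatives were window, promoter and overlap definitions, merging, peak number, scaling and libraries left out. A gene and a distal row are not reported here.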

Additional observations from a re-analysis of the deposited data

How the results depend on the processing

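Of 258 values under alternative settings, 206 kept their direction or, for counts, stayed within 1.5 times, though some changed in size, as the Sox2 promoter (0.00844 with scores divided by the library median) and Sox21 distal rows (0.333 with a window of 20 kb) did; the smallest p was 0.2, so none passed 0.05, and the causes of the changes were not tested. Differences are DA minus 5-HT. The number of peaks mattered most. With 22879 peaks per library, promoter differences were -5.05 (Sox1), -4.63 (Sox2), -1.71 (Sox3), -4.43 (Sox21) and 0 (Sox14), which are the 5-HT means with the sign changed, since no DA library kept a promoter peak, and distal differences -3.33 (Sox2), 0 (Sox3), -0.667 (Sox14) and -2.50 (Sox21); 1 distal row was shared by all, 0 were DA-only and 5 5-HT-only, and of the promoters 0 were shared by all and 3 were 5-HT-only; SoxB1 minus SoxB2 was 0.467. With 10000 peaks, promoter differences were -2.29 (Sox1), -2.02 (Sox2), -2.28 (Sox21) and 0 (Sox3, Sox14), distal differences -1 (Sox2), -0.5 (Sox21) and 0 (Sox3, Sox14), with 1 distal row shared by all, 0 DA-only, 0 5-HT-only, 0 promoters shared by all and 0 5-HT-only, and SoxB1 minus SoxB2 at 0.433. With exon rows as promoter rows, the Sox14 promoter gave -1.31 and the Sox1 distal rows 0.167; without rows in promoters of other genes, the latter gave 0. A window of 100 kb gave 4.83 for Sox1, 10 distal rows shared by all and 6 DA-only; of 20 kb, -0.333 for Sox14 and 1 DA-only. The wider promoter gave 1 DA-only distal row and 1 DA-only promoter.

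Leaving out 1 library at a time gave ranges of -0.0833 to 1.09 (Sox2 promoter), 0 to 1.58 (Sox14 promoter), -3.67 to 3.33 (Sox1 distal), -0.667 to 7.33 (Sox2 distal), -0.667 to 1.33 (Sox14 distal), 1 to 4.5 (Sox3 distal) and 2.5 to 6.5 (Sox21 distal). For distal rows they were 5 to 9 shared by all, 2 to 10 DA-only and 0 to 8 5-HT-only, and for 5-HT-only promoters 0 to 1. Without a 5-HT library the other stands alone, and no test was made.

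With a replicate block over numbers 1 and 2, which the labels do not describe as pairs, the Sox1 distal difference was 0.5 (p = 1, exact sign-flip test) and the other 9 kept their direction, for example -3.06 for the Sox1 promoter; p cannot fall below 0.5 with 2 pairs.

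Limits: 3 and 2 libraries, an unnamed score scale, unknown read depth, and pooled embryos. A missing peak is not proof of closed chromatin.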
